A study of Rattus norvegicus with 20 samples.

Results

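The experiment followed rat subplate neurons kept above a layer of cortical feeder cells and compared the cultures after 96 h with those after 24 h. Its members were the 10 of 20 Affymetrix arrays whose titles name cocultured cells, 5 at each time, and arrays with the same replicate number were taken as pairs. Subplate neurons were panned from the posterior cortex of rat embryos at day 17 with anti-p75 NTR, which binds a neurotrophin receptor, and plated on coverslips at 22100 cells per well in serum-free Neurobasal medium with B27 and chondroitin sulfate A. For coculture, a coverslip was set on wax spacers above 650000 cortical cells, the cells that had not stuck to the panning dish, so that the neurons shared medium with the feeder layer without touching it. Control coverslips stood in wells with wax dots and medium alone, again 5 arrays at 24 h and 5 at 96 h. Feeder wells were fed at 4 days in vitro, coverslips were added a day later, and no further feeding took place, so the medium was also older at 96 h. RNA was generally pooled from 6 coverslips and 100 ng was amplified through 2 rounds, and no genotype, strain or sex was given for any group. The design text says that synapses form mainly between 24 h and 48 h of coculture and that arrays at 96 h were added to see changes over longer times.

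Subplate neurons are among the earliest neurons of the cortex, lie beneath the cortical plate and largely disappear after birth. They receive early thalamic input and make transient synapses with neurons of the cortical plate. Immunopanning for p75 enriches them, but other neurons, progenitors and glia of the embryonic cortex can come along, and glia can divide or mature in culture. In bulk RNA, fewer cells of a type and less RNA per cell cannot be told apart.

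The deposited values were ratios of each probe set to its median over all 20 arrays, so the level of a gene, its detection, and the order of genes by level could not be read. Values below are log2 ratios, and a change is the mean log2 ratio at 96 h minus that at 24 h, with the standard error of a limma fit that held the replicate number as a block. "Rose" and "fell" stand for an adjusted p under 0.05 by limma with Benjamini-Hochberg adjustment over 8099 named genes. Precision is limited here by the number of arrays. Among the 31 listed markers of subplate neurons, 14 were measured, which says only that the authors' table called them present. Their mean log2 ratio per array ranged from -0.46 to -0.03 at 24 h and from -0.46 to 0.13 at 96 h.

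Above the feeder layer 464 of 8099 genes rose (5.73%) and 1652 fell (20.4%). The median named gene changed by -0.12, so falls among named genes were read against that shift. With the arrays adjusted to each other by cyclic loess the median was -0.01, and 959 genes rose (11.8%) and 936 fell (11.6%), among them 461 of the 464 rises and 918 of the 1652 falls. Without the replicate block 78 genes rose (0.963%) and 108 fell (1.33%), all of them among those called with it. Over 31042 probe sets, 1730 rose (5.57%) and 2688 fell (8.66%). The downward shift was that of named genes. The median ratio of an array over these probe sets averaged 1.013 at 24 h and 1.024 at 96 h, higher in 5 of 5 cocultured pairs. With equal array medians of named genes 3358 probe sets rose and 1639 fell, and with cyclic loess 1769 and 2446.

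In cocultures the hybridisation signal moved with time. The mean log2 ratio of 18 probe sets for bacterial and phage transcripts, which are added before hybridisation, went from 0.51 to 1.03 in replicate 1, from -0.34 to -0.01 in replicate 2, from 0.02 to 0.30 in replicate 3, from 0.07 to 0.54 in replicate 4 and from 1.36 to 1.62 in replicate 5. It was higher at 96 h in 5 of 5 cocultured pairs, by 0.38 ± 0.12 (SD of the pairs, n = 5; two-sided exact paired permutation p = 0.0625, the smallest that 5 pairs allow; exact unpaired p = 0.381). In controls it changed by -0.09 ± 0.14 and was higher at 96 h in 1 of 5 pairs (exact paired p = 0.3125). The median of the named genes was lower at 96 h in all 5 pairs, by 0.07 to 0.16 (exact paired p = 0.0625). With the hybridisation signal as a covariate beside the block, 68 genes rose (0.84%) and 53 fell (0.654%), 68 and 51 of them among the genes above. A call lost with the covariate did not always go with a smaller change. Among such genes Fos went from 3.52 to 1.93 and Egr1 from 1.98 to 0.97, but Gja1 from 1.21 to 1.52 and Calb2 from 1.25 to 1.49. The part of the hybridisation signal in the results was not tested. Both cocultured arrays of replicate 5 stood apart: the SD over genes within an array reached 0.68 (24 h) and 0.74 (96 h) there, against 0.25 to 0.33 and 0.26 to 0.49 in the other cocultured arrays. Without replicate 5, 770 genes rose (9.51%) and 2655 fell (32.8%), with 440 and 1613 shared with the full set.

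**Figure D1:**
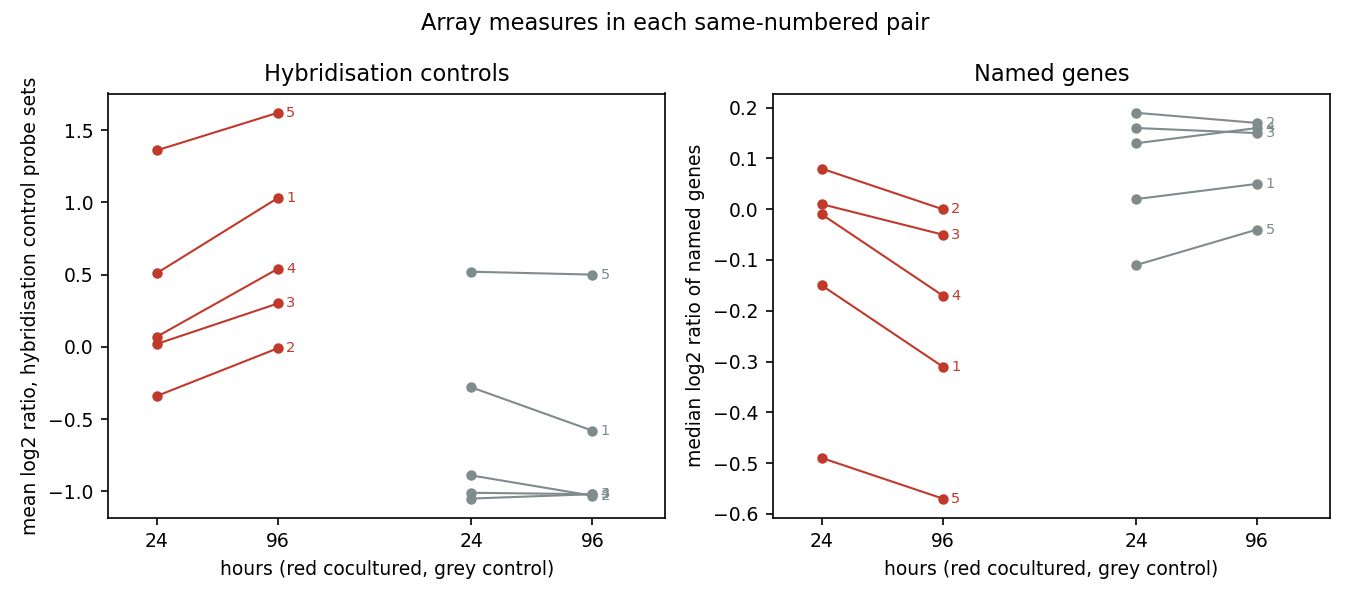
Mean log2 ratio of the 18 hybridisation control probe sets (left) and median log2 ratio of the 8099 named genes (right) at 24 h and 96 h, each line a same-numbered pair of arrays, red for cocultured and grey for control cultures. The red lines rise on the left and fall on the right in all 5 pairs, and cocultured replicate 5 lies at the edge of both plots.

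**Figure D2:**
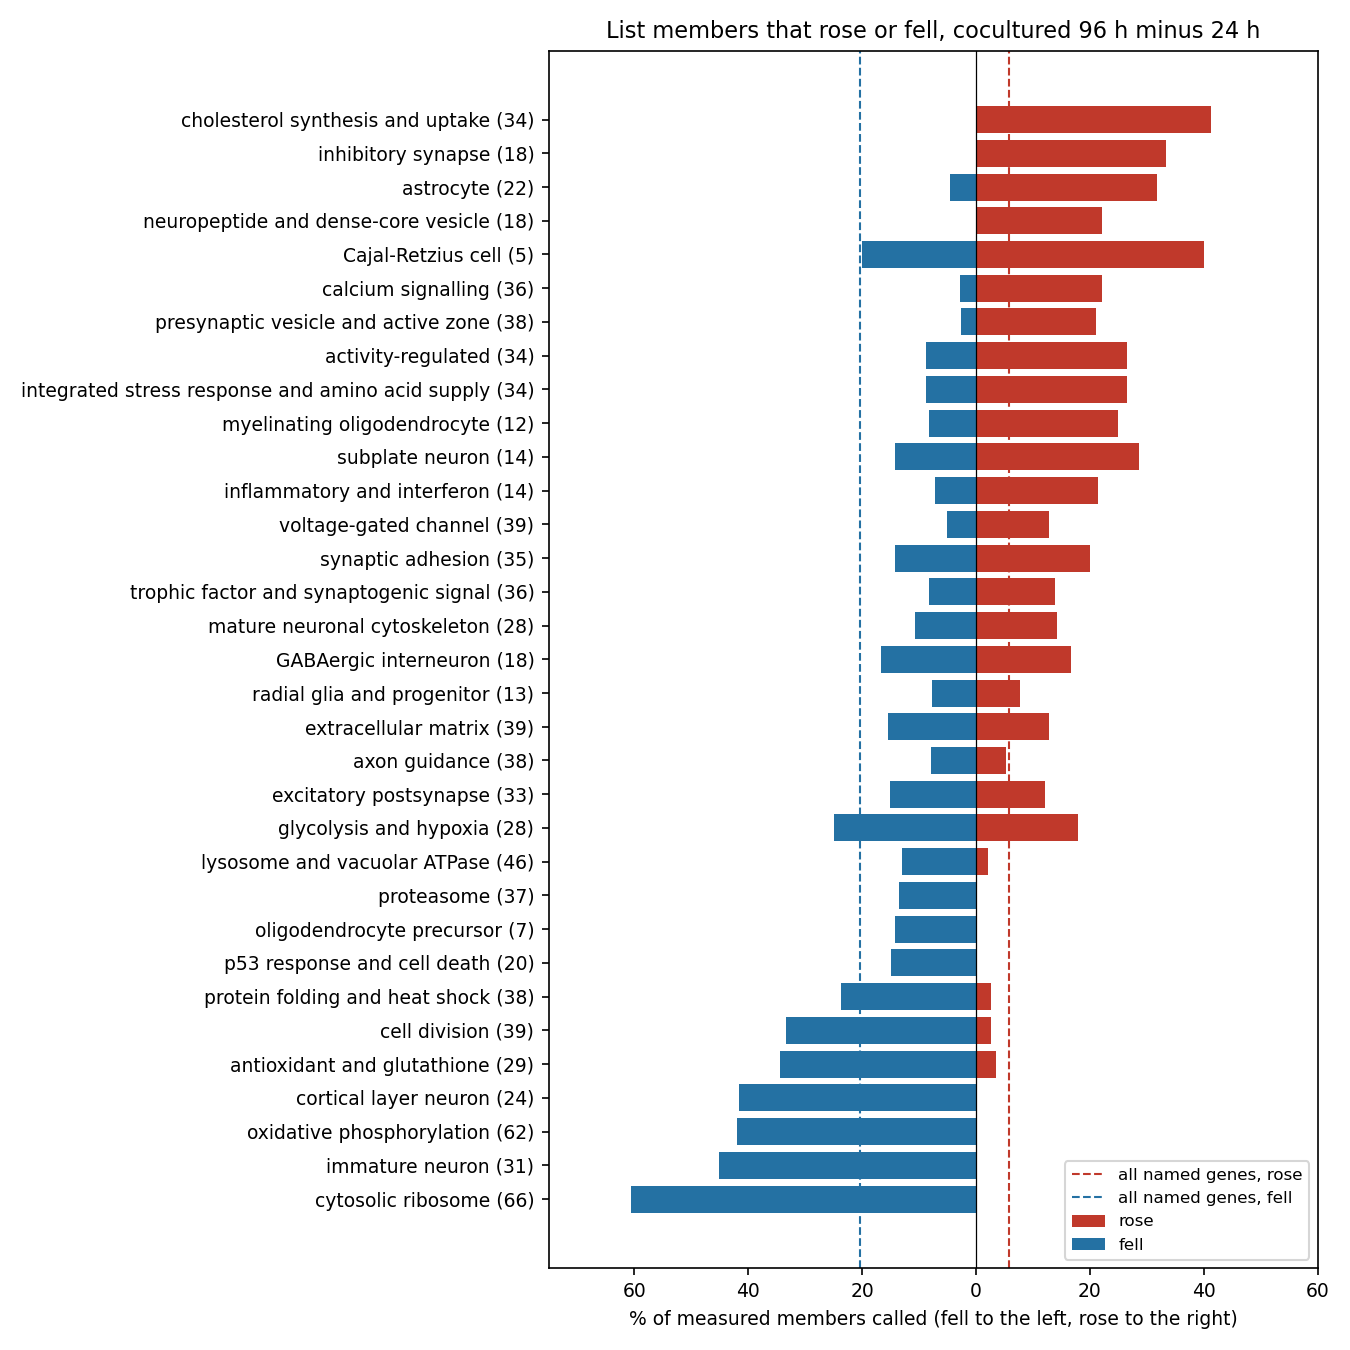
Share of the measured members of each gene list, in percent, that rose (red, to the right) or fell (blue, to the left) between 24 h and 96 h of coculture, for lists with at least 5 measured members, whose number stands in brackets. Dashed lines give the shares over all named genes, 5.73% and 20.4%. Cholesterol genes stand at the top with 41.2% risen, and cytosolic ribosomal proteins at the bottom with 60.6% fallen.

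In none of the 36 lists did more than 4 rises or 3 falls pass without the replicate block, and the same limits held with the hybridisation covariate. The counts of list members below rest on the pairing and on leaving that signal out of the fit. Each count of the main fit is to be read against the 5.73% of all genes that rose and the 20.4% that fell.

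Genes that respond to neuronal activity held the largest called rise, that of Fos. Of 34 measured activity-regulated genes 9 rose and 3 fell, with a median change of 0.19 against -0.12 over all genes. The controls had 8 rises and no fall in the same list, with a median of 0.20. Without the block 4 cocultured rises and 1 fall passed, and with the covariate 1 rise and 1 fall. With cyclic loess 12 rose and 2 fell, and without replicate 5, 13 and 4.

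Fos, a subunit of the AP-1 transcription factor and the classical immediate early gene, had log2 ratios of -3.77, -4.78, -3.91, -5.90 and -5.07 in cocultured replicates 1 to 5 at 24 h and of 0.57, -2.31, 0.21, 0.00 and -4.29 at 96 h. All 5 pairs went up, by 0.78 in replicate 5 and by 2.46 to 5.90 in the others, and the groups overlapped through replicate 5 at 96 h. The control arrays lay between -0.98 and 0.82 at both times, so 3 of the 5 cocultures reached the control range at 96 h. The mean rise was 3.52 ± 0.65 (SE, n = 5 pairs; 11.5-fold; adjusted p = 0.00123). With the hybridisation covariate the change was 1.93 and the call was lost (adjusted p = 0.328).

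Egr1, a zinc finger transcription factor induced by the same stimuli, rose by 1.98 ± 0.42 (adjusted p = 0.00317). Its arrays read 0.10, -0.57, -0.16, -1.17 and -1.03 at 24 h and 2.43, 0.91, 2.09, 1.91 and -0.28 at 96 h, again with replicate 5 the lowest at 96 h. This call too was lost with the covariate, where the change was 0.97 (adjusted p = 0.452). Rgs4, which speeds the shut-off of G protein signals, went from between -2.09 and -1.59 to between -1.30 and 0.07 with no overlap, and rose by 1.40 ± 0.14 (adjusted p = 8.71e-06; probe sets 1.06 and 1.73). Its relative Rgs2 rose by 0.85 ± 0.12. Dusp6, a phosphatase of the ERK kinases, rose by 0.84 (hybridisation covariate, adjusted p = 0.456) and Vgf, the precursor of secreted neuropeptides, by 0.51. Nrn1, Homer1 and Jun went the other way. In the controls Rgs4, Rgs2 and Vgf rose as well, by 0.70, 0.58 and 0.74, and Egr1 had a change of 0.67 that did not pass. At 96 h the mean log2 ratios of Rgs4, Rgs2 and Vgf were -0.37, -0.49 and -0.51 in cocultures, against 1.04, 1.365 and 1.35 in controls.

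Nrn1 (neuritin, a membrane-anchored protein that promotes neurite growth) read -0.47, -0.37, -0.11, -0.64 and -1.1 at 24 h and -1.27, -1.29, -1.34, -1.38 and -1.92 at 96 h. It fell by 0.90 on the log2 scale (SE 0.11, adjusted p = 6.53e-05), without overlap and also unpaired (adjusted p = 0.00361) and with the covariate (0.00519), and by 0.45 with cyclic loess. Homer1, a scaffold of metabotropic glutamate receptors, fell by 0.36 (probe sets from -0.65 to -0.08) and Jun by 0.30. Bdnf and Nr4a1 had changes of 0.12 and 0.80 that did not pass.

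The promoters of Egr1 and Vgf are shown because they hold known kinds of activity response element, and these 2 genes rose together. Each line gives the 250 bases before the RefSeq start on the gene's strand, in build GRCr8. For Egr1 (chr18:26736828-26737077, plus strand) capitals mark CArG boxes, and for Vgf (chr12:25277021-25277270, minus strand) the palindrome TGACGTCA, both searched on both strands.
Egr1: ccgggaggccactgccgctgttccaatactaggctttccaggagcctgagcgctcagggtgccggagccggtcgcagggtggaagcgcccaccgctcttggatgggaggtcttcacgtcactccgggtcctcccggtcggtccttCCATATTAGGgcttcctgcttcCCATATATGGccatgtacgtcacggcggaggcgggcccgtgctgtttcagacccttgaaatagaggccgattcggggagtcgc
Vgf: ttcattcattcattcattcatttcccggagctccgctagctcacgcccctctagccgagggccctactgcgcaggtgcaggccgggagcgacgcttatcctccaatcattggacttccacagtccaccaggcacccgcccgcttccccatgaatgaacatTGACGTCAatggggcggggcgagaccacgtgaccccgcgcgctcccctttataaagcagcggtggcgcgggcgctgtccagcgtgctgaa
Of the 34 measured genes of the list, 28 had an entry in the promoter table, with 35 entries. TGACGTCA stood in 9 of the 35 (25.7%), against 1.59% of all 33469 entries and 3.26% of those of measured genes. A CArG box stood in 4 (11.4%), against 1.5% and 1.14%. These shares cover all measured members, also those that fell or did not pass, so they do not describe the rises. The list was chosen as genes that respond to activity, so a high share may come with that choice. A match is a description of the letters in this window, and no binding was measured.

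**Figure D3:**
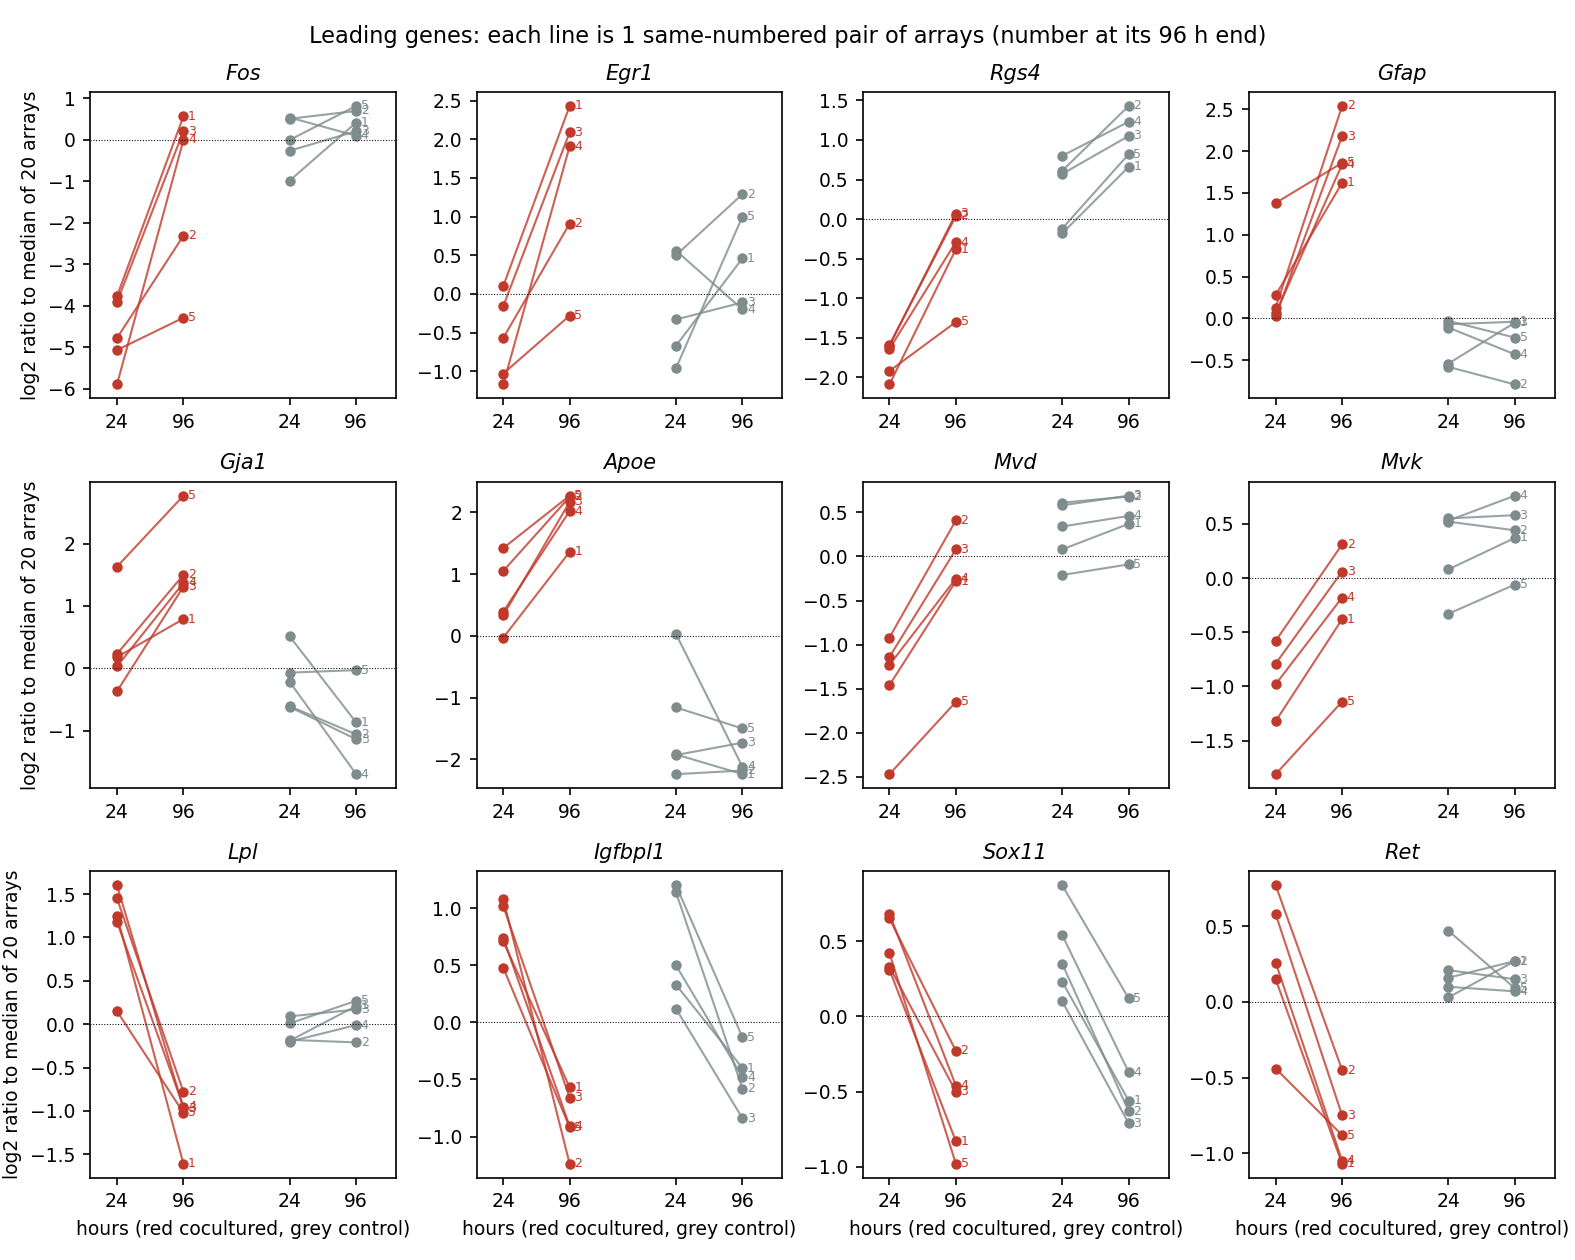
Log2 ratio to the median of all 20 arrays for 12 leading genes at 24 h and 96 h, each line a same-numbered pair with its number at the 96 h end, red for cocultured and grey for control cultures. In Gfap, Lpl, Igfbpl1, Sox11, Rgs4 and Ret the red points at 96 h do not overlap those at 24 h, and in Fos replicate 5 stays near -4.29 while the others end between -2.31 and 0.57.

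Several genes of cholesterol synthesis and uptake rose. Of 34 measured members 14 rose (41.2%) and none fell, with a median of 0.36, and the controls had no rise and 1 fall, with a median of -0.05. With cyclic loess 26 rose and none fell. Without the block 4 of the rises passed (Lss, Ebp, Tm7sf2 and Insig1), and with the covariate 3 did (Mvd, Mvk and Ebp). Without replicate 5, 27 rose and 2 fell. In 6 genes the change with time was itself higher in cocultures than in controls, among them Mvd, Mvk, Lss, Ebp and Tm7sf2. That count was 24 with cyclic loess and 0 both without the block and with the covariate.

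Mvk (mevalonate kinase), which acts after the synthase Hmgcs1, read -1.32, -0.58, -0.79, -0.98 and -1.81 at 24 h and -0.38, 0.31, 0.06, -0.18 and -1.14 at 96 h, a rise of 0.83 ± 0.11 (adjusted p = 7.44e-05). Mvd, the decarboxylase that makes isopentenyl diphosphate, rose by 1.11 ± 0.14 (adjusted p = 6.57e-05), from -1.46, -0.92, -1.14, -1.23 and -2.47 to -0.28, 0.41, 0.08, -0.25 and -1.65. Both went up in 5 of 5 pairs by similar amounts, while the arrays of each group spread more widely than the change, so the groups overlapped and the unpaired fit did not call them (adjusted p = 0.109 and 0.0796). The control arrays lay between -0.33 and 0.76 for Mvk and between -0.21 and 0.69 for Mvd at both times.

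Genes of later steps rose as well. Lss, which closes the sterol ring, rose by 0.78, Tm7sf2, a sterol reductase, by 0.70 ± 0.11, Hsd17b7 by 0.71, and Ebp, the sterol isomerase, by 0.73 ± 0.09. Insig1, which holds back the pathway when sterol is plentiful, rose by 0.66 and Scd, a fatty acid desaturase, by 0.60. The synthase Hmgcs1 (0.16), Sqle (0.21), Fdft1 (-0.27) and the regulators Srebf2 (0.20) and Srebf1 (0.26) did not pass.

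The promoters of Mvd and Ebp are printed as those of a pair of members that rose together, with CCAAT, a motif long known from promoters of sterol genes, in capitals (as ATTGG where it lies on the other strand). The Mvd window is chr19:67414975-67415224 on the minus strand and the Ebp window chrX:16971212-16971461 on the plus strand, both from RefSeq in GRCr8.
Mvd: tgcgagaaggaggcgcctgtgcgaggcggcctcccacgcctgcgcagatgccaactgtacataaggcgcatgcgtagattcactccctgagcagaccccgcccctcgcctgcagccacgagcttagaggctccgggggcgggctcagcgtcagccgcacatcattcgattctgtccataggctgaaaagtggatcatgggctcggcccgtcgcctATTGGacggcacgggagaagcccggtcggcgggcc
Ebp: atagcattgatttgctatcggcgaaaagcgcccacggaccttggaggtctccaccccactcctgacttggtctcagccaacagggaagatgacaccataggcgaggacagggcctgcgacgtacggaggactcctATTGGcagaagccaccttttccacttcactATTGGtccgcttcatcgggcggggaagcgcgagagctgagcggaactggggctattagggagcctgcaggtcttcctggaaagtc
Of the measured members 25 had a promoter entry, and CCAAT, on either strand, stood in 21 of their 26 entries (80.8%), against 34.0% of all entries and 35.4% of those of measured genes. Among the members that rose, 12 had an entry and 9 held it (75.0%). The sterol response motif searched, TCACNCCAC, stood in none of the 26, against 0.974% of all entries. At that share no match was likely in so few entries, so its absence here says little.

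Other lipid genes moved too. Lpl, the lipoprotein lipase that frees fatty acids from triglyceride, had the largest fall: 1.25, 1.45, 1.6, 1.18 and 0.15 at 24 h became -1.61, -0.78, -0.97, -0.95 and -1.02 at 96 h. The groups did not overlap, and it fell by 2.19 on the log2 scale (SE 0.20, 4.56-fold; adjusted p = 3.76e-06; unpaired 1.2e-05; covariate 0.004). Control arrays stayed between -0.21 and 0.27. Apoe, the main lipid carrier of the brain, rose by 1.38 ± 0.29 (adjusted p = 0.00278), from -0.03, 1.05, 0.33, 0.39 and 1.42 to 1.36, 2.25, 2.17, 2.02 and 2.27. Only replicate 1 at 96 h lay within the range at 24 h.

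Of 22 measured astrocyte markers 7 rose (31.8%, against 5.73% of all genes) and 1 fell, with a median of 0.25, and no member was called in the controls (median 0.02). The mean of the list ranged from 0.06 to 0.81 at 24 h and from 0.51 to 0.92 at 96 h and was higher at 96 h in 5 of 5 pairs. The unpaired fit called 3 rises and no fall, the covariate 4 rises, and cyclic loess 7 rises and 1 fall. Without replicate 5, 14 rose and 1 fell. Since only ratios were deposited, whether a marker was at 0 in any array could not be read.

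Gfap, the intermediate filament of astrocytes, read 0.28, 0.13, 0.03, 0.06 and 1.38 at 24 h and 1.62, 2.54, 2.18, 1.84 and 1.86 at 96 h. Every array at 96 h exceeded every array at 24 h, although replicate 5 was already high at 24 h and gained only 0.47. The rise was 1.63 ± 0.22 (3.10-fold; adjusted p = 0.000119; unpaired 0.00162; covariate 0.004). Gja1, the main gap junction protein of astrocytes, rose by 1.21 ± 0.25 (adjusted p = 0.00235), from 0.18, 0.23, -0.37, 0.03 and 1.63 to 0.79, 1.5, 1.31, 1.37 and 2.77. It was not called unpaired (0.106) or with the covariate (0.0606), although its change with the covariate was 1.52. Aldoc, the brain aldolase, rose by 0.66 ± 0.13, Atp1b2 by 0.40 and Clu by 0.35.

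Not all astrocyte genes followed. Cst3, a protease inhibitor that many cell types make, fell by 0.48. The glutamate handling genes Slc1a3 (0.18) and Glul (-0.05), the water channel Aqp4 (0.11) and S100b (0.52) did not pass.

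The other glial and non-neuronal lists were short. Among 13 radial glia and progenitor markers Ddah1 rose by 0.46 and Prom1 fell by 0.39, while Vim (0.54), Sox2 (0.29) and Fabp7 (0.06) did not pass. Sox2 was called a rise of 0.94 with cyclic loess (adjusted p = 0.0277). Of 12 markers of myelinating oligodendrocytes 3 rose and 1 fell, and their mean went from between -0.03 and 0.12 to between 0.10 and 0.61, up in 5 of 5 pairs. The unpaired fit kept 1 rise and the covariate none. Cldn11, the tight junction protein of myelin, rose by 1.75 ± 0.36 (adjusted p = 0.00235; unpaired 0.0542), mostly in replicates 1 and 5 (2.98 and 2.59, against 0.89 to 1.30 in the others). The stress chaperone Cryab rose by 0.81 and Tspan2 by 0.30, Qdpr fell by 0.49, and the myelin genes Mbp (-0.15) and Mog (-0.28) did not pass. Of 7 oligodendrocyte precursor markers Vcan fell by 0.77, and Olig1 (0.06) and Pdgfra (0.16) did not pass. No member was called among 2 microglial and 3 endothelial markers, and Igfbp2 fell by 0.30 among 3 meningeal fibroblast markers. What part such cells had in the other results was not tested.

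Of 31 measured genes of young neurons 14 fell (45.2%, against 20.4% of all genes) and none rose, with a median of -0.28, and in 0 of 5 pairs was the list mean higher at 96 h. The controls had 5 falls and 1 rise, with a median of -0.18. Cyclic loess left 11 falls and 1 rise, the unpaired fit 2 falls and the covariate 3. Without replicate 5 there were 16 falls.

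Igfbpl1, a secreted protein made by newborn neurons, fell from 0.71, 1.08, 1.02, 0.74 and 0.48 to -0.57, -1.24, -0.66, -0.91 and -0.92, with no overlap and a change of -1.67 ± 0.20 (adjusted p = 3.82e-05; unpaired 0.000256; covariate 0.00233). Sox11, a transcription factor of neuronal differentiation, read between 0.31 and 0.68 at 24 h and between -0.98 and -0.23 at 96 h, and fell by 1.08 on the log2 scale (SE 0.15, adjusted p = 0.000165). All 8 of its probe sets fell, by 0.31 to 1.72. Cd24, a surface glycoprotein of young neurons, fell by 1.07, Sox4 by 0.67, Dcx, a microtubule protein of migrating neurons, by 0.43 and Map1b by 0.48. The growth cone genes Gap43 (0.01), Stmn2 (-0.07) and Basp1 (0.13) did not pass.

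Of 24 transcription factors and other markers of cortical layers 10 fell (41.7%, against 20.4% of all genes) and none rose, while their median of -0.14 was close to the -0.12 of all genes. Cyclic loess gave 5 falls and 1 rise, the unpaired fit 2 falls, the covariate none, and leaving out replicate 5 gave 11. The nuclear factor Nfib fell by 0.90 (probe sets from -1.13 to -0.74), Bcl11b, which specifies neurons that project out of the cortex, by 0.79, Pou3f3 by 0.69, Neurod6 by 0.53 and Fezf2 by 0.35, the last with a change of 0.08 under cyclic loess (adjusted p = 0.754). Cux2 (-0.18) and Etv1 (0.06) did not pass. Bcl11b read 1.06, 0.86, 0.93, 0.70 and -0.19 at 24 h and 0.13, 0.05, 0.04, -0.12 and -0.71 at 96 h, so the arrays overlapped only through replicate 5 at 24 h.

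Of 14 measured subplate markers 4 rose and 2 fell. Gabra5 rose by 1.02, Inpp4b by 0.47 ± 0.11, Kcnab1 by 0.46 (probe sets from 0.01 to 1.34) and Svil by 0.33, while Nfe2l3 fell by 0.60 and the activin binding protein Fst by 0.45. Ccn2 (0.28), Nr4a2 (0.27) and Nxph3 (0.13) did not pass. Among 18 interneuron markers 3 rose and 3 fell (16.7% each, against 5.73% and 20.4% of all genes), and without replicate 5, 6 and 2. The calcium binding protein Calb2 (calretinin) rose by 1.25 ± 0.27 (adjusted p = 0.00369; covariate 0.0998) and Slc32a1, the vesicular GABA transporter, by 0.67, while Ackr3, a chemokine receptor of migrating interneurons, fell by 0.91 and Dlx1 by 0.56. Of 5 Cajal-Retzius markers Calb2 and Ednrb (0.72) rose and Reln, the secreted guide of layer formation, fell by 0.39.

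Of 39 cell division genes 13 fell (33.3%, against 20.4% of all genes) and 1 rose (2.56%, against 5.73%), with a median of -0.22 against -0.12. Without replicate 5, 15 fell and 4 rose, and cyclic loess left 11 falls and 2 rises, the unpaired fit 3 falls and the covariate none. Ezh2, a histone methyltransferase of progenitors, fell by 0.92 (probe sets -1.44 and -0.41), Mcm7, a subunit of the replicative helicase, by 0.90 ± 0.11, Cdk4 by 0.75, the DNA primase subunit Prim1 by 0.71 and Pcna by 0.36. Ezh2 and Mcm7 had changes of -0.87 and -0.73 in the controls. Cdk1 (0.10), Top2a (-0.15) and Ccnb1 (-0.22) did not pass, and Tk1 rose by 0.32.

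Of 18 genes of inhibitory synapses 6 rose and none fell (median 0.20), and the controls had 3 rises and a median of 0.19. The GABA-A receptor subunits Gabra5 (1.02 ± 0.20), Gabrd (0.50 ± 0.11) and Gabrb1 (0.33 ± 0.08) rose, as did the metabotropic Gabbr2 (0.31) and the chloride exporter Slc12a5 (0.23). Gabra5 read -0.73, -0.46, -0.54, -0.74 and -2.63 at 24 h and 0.06, 0.52, 0.39, 0.15 and -1.14 at 96 h, up in 5 of 5 pairs, with replicate 5 low at both times. With cyclic loess 8 rose and without replicate 5, 10. Unpaired only Gabrd passed (adjusted p = 0.0393), and with the covariate none.

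Among 38 presynaptic genes 8 rose and 1 fell (median 0.11; controls 6 and none, median 0.19; cyclic loess 13 and 1; without replicate 5, 11 and 5). Unpaired only Rab3b passed. The vesicle proteins Synpr (0.86 ± 0.16) and Rab3b (0.73 ± 0.10) led. Rab3b read between -0.76 and -0.27 at 24 h and between -0.24 and 0.44 at 96 h, without overlap. Slc32a1, Syngr3 (0.44), Sv2c (0.40), Stx1a (0.37), Sncb (0.29) and Vamp2 (0.23) also rose, and the synaptotagmin Syt4 fell by 0.57. The general vesicle genes Syp (-0.12), Syt1 (0.11), Snap25 (0.09) and the glutamate transporters Slc17a6 and Slc17a7 (both -0.11) did not pass.

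Of 33 excitatory postsynaptic genes 4 rose and 5 fell (15.2%, against 20.4% of all genes), with a median of -0.03. With cyclic loess 6 rose and again 5 fell, where 11.6% of all genes did, and without replicate 5, 5 rose and 11 fell, where 32.8% of all genes did. The share of falls was thus not steadily below or above that of all genes. The NMDA receptor subunit Grin1 rose by 0.38, the AMPA receptor subunit Gria3 by 0.40 and Grin3a by 0.35, while the endosomal proteins Nsg2 and Nsg1, which carry receptors, fell by 0.75 and 0.62. Among 35 synaptic adhesion genes 7 rose (20.0%, against 5.73% of all genes) and 5 fell (14.3%, against 20.4%). None rose and 1 fell unpaired, and none was called with the covariate. The protocadherin Pcdh20 (0.73), the netrin-G ligand Lrrc4c (0.58) and Nrxn3 (0.29) rose, and Ephb1, a receptor for ephrin-B, fell by 0.96, Adgrl2 by 0.65 and Ntm by 0.60.

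Voltage-gated channels had 5 rises and 2 falls among 39, 12 and 2 with cyclic loess, and 11 and 2 without replicate 5. The sodium channel subunits Scn2a (0.42) and Scn3b (0.35) and the potassium channel Kcnh3 (0.57) rose, and the L-type calcium channels Cacna1c and Cacna1d fell by 0.54 and 0.40. Of 36 calcium signalling genes 8 rose and 1 fell (controls 11 and 1). With cyclic loess 16 rose and 1 fell, without replicate 5, 15 and 5, and 2 rises passed unpaired or with the covariate. The calcium sensor Vsnl1 rose by 1.32 ± 0.15 (adjusted p = 2.49e-05; unpaired 0.143), from -1.12, -0.56, -0.56, -0.95 and -2.89 to 0.16, 0.90, 0.68, 0.13 and -1.35. Its relative Hpca (hippocalcin) went from between -0.03 and 0.30 to between 0.57 and 1.19 with no overlap, a rise of 0.70 ± 0.10 that held unpaired (0.00936) and with the covariate (0.0145). Atp2b2 rose by 0.57 and Camk4 fell by 0.42 (probe sets from -0.77 to -0.07).

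Of 18 neuropeptide and dense-core vesicle genes 4 rose and none fell, and 7 rose in the controls, whose median was 0.38 against 0.11. With cyclic loess 7 rose, and without replicate 5, 4 rose and 1 fell. Cadps2, which primes dense-core vesicles for release, rose by 1.21 ± 0.12, although its probe sets gave 0.36 and 2.06. The peptide precursor Cck rose by 0.59 and the granin Chgb by 0.35. Of 38 axon guidance genes 2 rose (5.26%, against 5.73% of all genes) and 3 fell (7.89%, against 20.4%), but 8 rose both with cyclic loess and without replicate 5. The receptors Unc5c and Robo2 rose by 0.58 and 0.26, and Dcc, a netrin receptor, and Slit2, a ligand of Robo receptors, fell by 0.50 and 0.37. Of 28 cytoskeleton genes 4 rose (14.3%, against 5.73% of all genes) and 3 fell (10.7%, against 20.4%). Among them were Map1a (0.41) and Add3 (0.48) upward and the neurofilament Nefm (-0.73 ± 0.10) and Tubb5 (-0.61) downward. Without replicate 5, 4 rose and 10 fell, and with cyclic loess 6 and 3.

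**Figure D4:**
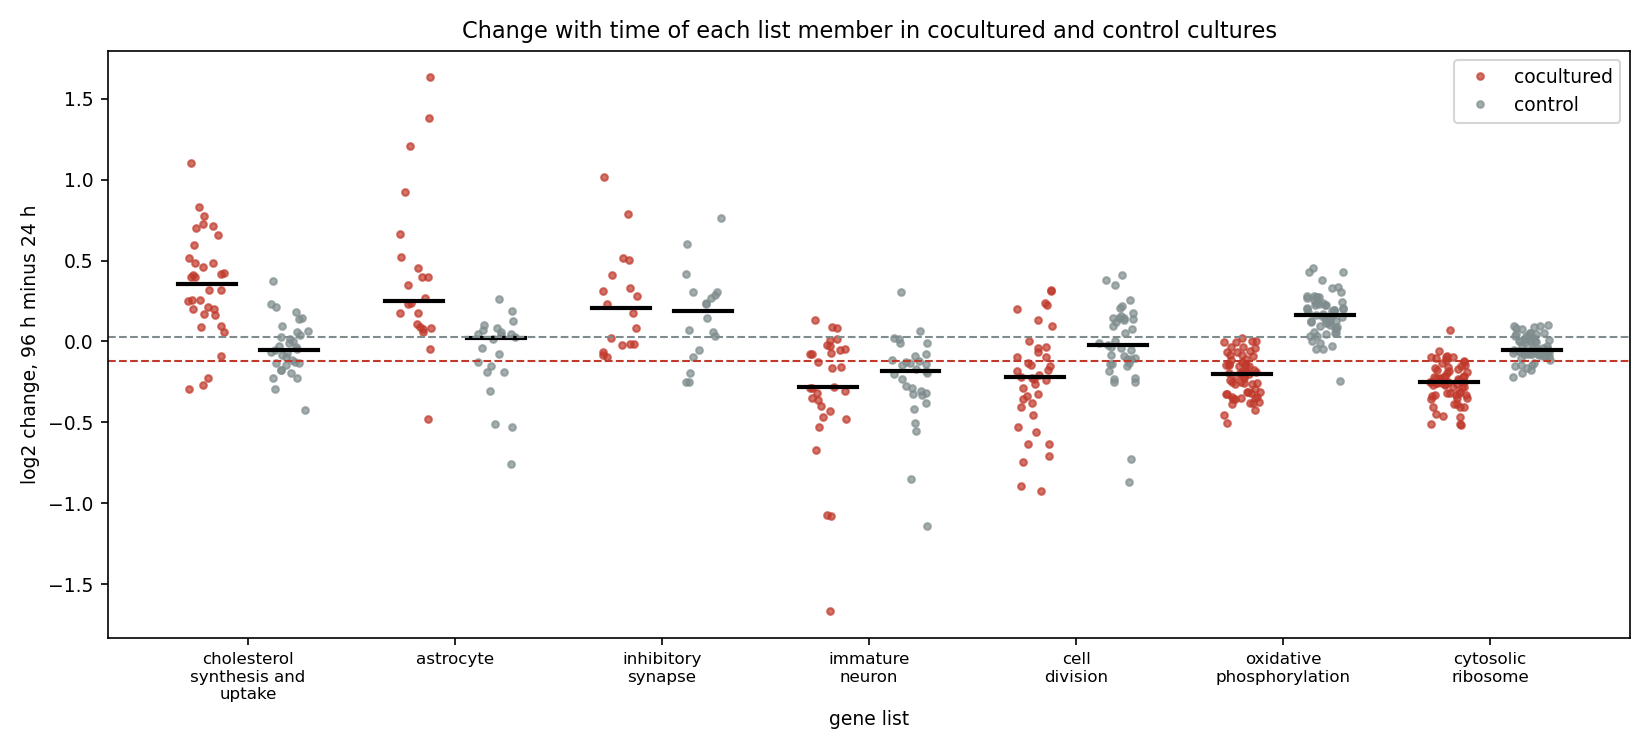
Log2 change between 24 h and 96 h of every measured member of 7 lists in cocultured (red) and control (grey) cultures, with black bars at the medians and dashed lines at the medians of all named genes, -0.12 and 0.03. Cholesterol and astrocyte members lie higher in red than in grey, and oxidative phosphorylation and ribosomal members lower.

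On the deposited scale ribosomal proteins had the highest share of falls among the lists. Of 66 measured 40 fell (60.6%) and none rose, with a median of -0.25, and no member was called in the controls (median -0.05). Rps9 read -0.44, 0.15, -0.01, 0.01 and -1.02 at 24 h and -0.96, -0.36, -0.50, -0.62 and -1.46 at 96 h. It fell in 5 of 5 pairs, by 0.44 to 0.63, and by 0.52 ± 0.08 on average (adjusted p = 0.000345), while the arrays of each group spread more widely than that. Rpl6 and Rpl10 fell by 0.51 and 0.47. The call rested on the pairing and on the scale: cyclic loess left 13 falls with a median of -0.13, no longer the highest share, and the unpaired fit and the covariate left none. Without replicate 5, 52 fell.

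Of 62 measured genes of oxidative phosphorylation 26 fell in cocultures (41.9%) and none rose (median -0.20), while in controls 10 rose and none fell (median 0.17). Without replicate 5, 37 fell, and with cyclic loess 16. The difference of the changes was called lower in cocultures for 29 members, against 9.37% of all genes, and for 16 with cyclic loess, against 4.95%. Atp5pb, a stalk subunit of ATP synthase, read -0.31, 0.13, 0.06, 0.03 and -1.20 at 24 h and -0.97, -0.16, -0.28, -0.47 and -1.55 at 96 h, a change of -0.43 ± 0.08 against 0.31 in controls. Sdhb, a subunit of complex II, changed by -0.39 and 0.38, and the complex I subunit Ndufb4 by -0.38 and -0.25. Unpaired or with the covariate no member was called, either for the change in cocultures or for its difference from controls.

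Of 28 genes of glycolysis and the hypoxia response 5 rose (17.9%, against 5.73% of all genes) and 7 fell (25.0%, against 20.4%). In the controls 9 rose. Unpaired 1 rose and 2 fell, and with the covariate 1 rose. The lactate transporter Slc16a1 fell by 0.53 (probe sets -1.01 and -0.04), Pdk1, which keeps pyruvate from the mitochondrion, by 0.56 and Hif1a by 0.51, and Aldoc and the transcription factor Bhlhe40 (0.43) rose. Of 29 antioxidant genes 10 fell and 1 rose, and 2 falls passed unpaired and 1 with the covariate. The peroxide-reducing enzymes Gpx1 and Prdx4 fell by 0.97 ± 0.11 and 0.74 ± 0.10, the former without overlap (between -0.36 and 0.31 at 24 h, between -1.34 and -0.82 at 96 h), and Me1, a source of NADPH, rose by 0.60 (probe sets 0.24 and 0.96).

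Chaperones had 9 falls and 1 rise among 38, near the share of all genes, with 3 falls and 2 rises under cyclic loess and 14 and 2 without replicate 5. Subunits of the chaperonin that folds actin and tubulin led the falls (Cct5 by 0.58, Cct7 by 0.47, Cct4 by 0.44). Of 37 proteasome genes 5 fell and none rose, of 46 lysosomal genes 6 fell and 1 rose, and of 20 genes of the p53 response and cell death 3 fell and none rose, where 20.4% of all genes fell. Leaving out replicate 5 raised these falls to 13, 11 and 7, where 32.8% of all genes fell, while with cyclic loess 4, 1 and 2 fell and 1, 7 and 3 rose. Psmb6 fell by 0.36, the proton pump accessory protein Atp6ap1 by 0.81, the lysosomal protease Lgmn rose by 0.46, and Bid, a trigger of apoptosis, fell by 0.54. Of 34 genes of amino acid supply and the integrated stress response 9 rose and 3 fell, and in the controls 11 rose and none fell, but the unpaired fit called none and the covariate 1. Without replicate 5, 15 rose and 4 fell. Atf4, its central transcription factor, rose by 0.93 ± 0.09 (adjusted p = 7.1e-06; unpaired 0.124; covariate 0.0025), from between -1.83 and -0.99 to between -1.33 and 0.03, and by 0.61 in the controls. Aars1 and Atf5 rose by 0.44 each, and Vldlr fell by 0.83 (probe sets from -1.30 to -0.47).

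Signals between cells changed member by member. Among 36 trophic factors and synaptogenic signals 5 rose and 3 fell, against 6 and 7 without replicate 5 and 8 and 1 with cyclic loess. Ret, the kinase that receives GDNF-family ligands, read 0.15, 0.77, 0.58, 0.26 and -0.44 at 24 h and -1.07, -0.45, -0.75, -1.05 and -0.88 at 96 h, without overlap, a change of -1.11 ± 0.15 (adjusted p = 0.000112; unpaired 0.00256; covariate 0.0706), and its control change was -0.02. Its co-receptor Gfra1 fell by 0.58, and Dkk3 by 0.47. The neurotrophin Ntf3 rose by 0.66 ± 0.18 and the synapse organiser Cbln2 by 0.42. Fgf13, a listed member of the FGF family that is not a secreted signal, rose by 0.50. Of 39 matrix genes 5 rose (12.8%, against 5.73% of all genes) and 6 fell (15.4%, against 20.4%). Acan, the core protein of perineuronal nets, rose by 1.11 and Bcan by 0.48. Vcan, the proteoglycan of young matrix, fell by 0.77 ± 0.09 (probe sets from -0.86 to -0.62), Gpc2 by 0.92 and Sdc1 by 0.69. With cyclic loess 10 matrix genes rose and 4 fell. Of 14 inflammatory genes 3 rose (Stat2, Cxcl12 and Nfkb1, by 0.26 to 0.44), and B2m, the light chain of class I molecules, fell by 0.84 in cocultures (probe sets -1.20 and -0.48) against a control change of 0.57.

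Among the 15 largest rises that held their sign in every pair, several lie outside the lists. Dgkb, a diacylglycerol kinase, read -0.01, 0.89, 0.88, 0.24 and -0.28 at 24 h and 1.76, 2.79, 2.73, 1.80 and 0.82 at 96 h and rose by 1.64 ± 0.20 (adjusted p = 4.65e-05). Etl4 rose by 1.44 ± 0.10 without overlap (probe sets 0.74 and 2.13), Pgm2 by 1.34, Inf2, a formin that shapes actin, by 1.21 without overlap, and Gda, a guanine deaminase of dendrites, by 1.21. Of these, Pgm2 alone lost its call with the covariate (adjusted p = 0.169), and Gda alone without the pairing (0.069).

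The 15 largest falls held further regulators. Xpr1, a phosphate exporter, fell by 1.71 ± 0.21, although its arrays in replicate 5 read -2.02 and -2.48 and so were low at both times, and under cyclic loess the change was -0.97. The transcriptional regulators Tox3, Mllt3 and Sall2 fell by 1.41, 1.35 and 1.28, and the kinase Mylk by 1.34, without overlap except for Tox3. Kyat3, an aminotransferase, fell by 1.26 ± 0.10, from between -0.33 and 0.50 to between -1.45 and -0.76, and was called unpaired, with the covariate and with cyclic loess. Ier5 fell by 1.1 ± 0.11 with no overlap and the phosphodiesterase Pde7a by 1.16. Spin2a, Znf383, Spats1 and Cd96 fell by 1.31, 1.22, 1.19 and 1.17, of which Spats1 lost its call unpaired (adjusted p = 0.0896). With the covariate none of these passed (0.0699, 0.0516, 0.41 and 0.0992 in that order), and the change of Spats1 was -0.54. Tox3, Sall2 and Pde7a also missed the threshold with it (0.0779, 0.0542 and 0.0539), with changes of -1.25, -1.02 and -1.30. Over all genes, the arrays of the 2 times did not overlap for 221 (2.73%).

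The question that the design adds is whether these changes belong to time in culture or to time above the feeder layer. In controls 438 genes rose with time (5.41%) and 120 fell (1.48%). Of the 464 rises in cocultures 104 also rose in controls (22.4%, and 23.7% of the control rises), and of the 1652 falls 77 also fell (4.7%, and 64.2% of the control falls). A further 53 genes fell in cocultures and rose in controls, and 2 did the reverse. The difference of the changes was called higher in cocultures for 108 genes (1.33%) and lower for 759 (9.37%). With cyclic loess these were 400 (4.94%) and 401 (4.95%), and without the block 4 genes were called in all (0.0494%). With the covariate 1 was called higher and 10 lower.

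The change with time was higher in cocultures for Fos (difference 3.03 ± 0.92), Gja1 (1.97), Apoe (1.89), Gfap (1.68), Dgkb (1.40) and Ntf3 (1.22). Gja1 had a control change of -0.76, Apoe of -0.51 and Gfap of -0.04, none of them called. For Apoe, every control array lay at or below 0.03 and every cocultured one at or above -0.03. The change with time was lower in cocultures for Lpl (-2.37), Sst (-1.92), Lmcd1 (-1.88), Emp1 (-1.64), Xpr1 (-1.62) and Ier5 (-1.55). For Sst (somatostatin), the LIM protein Lmcd1 and the membrane protein Emp1 the cocultures had changes of 0.24, 0.00 and 0.02 that did not pass, while the controls rose by 2.16, 1.88 and 1.66. Sst in controls read -0.94, 0.95, 0.46, 0.50 and -0.63 at 24 h and 1.23, 3.63, 2.75, 2.80 and 0.71 at 96 h, and in cocultures it lay between -0.96 and 0.12 at both times. Slit2, Homer1 and B2m rose in controls (0.81, 0.39 and 0.57) and fell in cocultures, with called differences of -1.18, -0.75 and -1.41. Igfbpl1, Sox11, Ezh2, Mcm7 and Rab3b moved the same way in both cultures, and their differences (-0.52, -0.23, -0.05, -0.17 and -0.03) were not called.

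**Figure D5:**
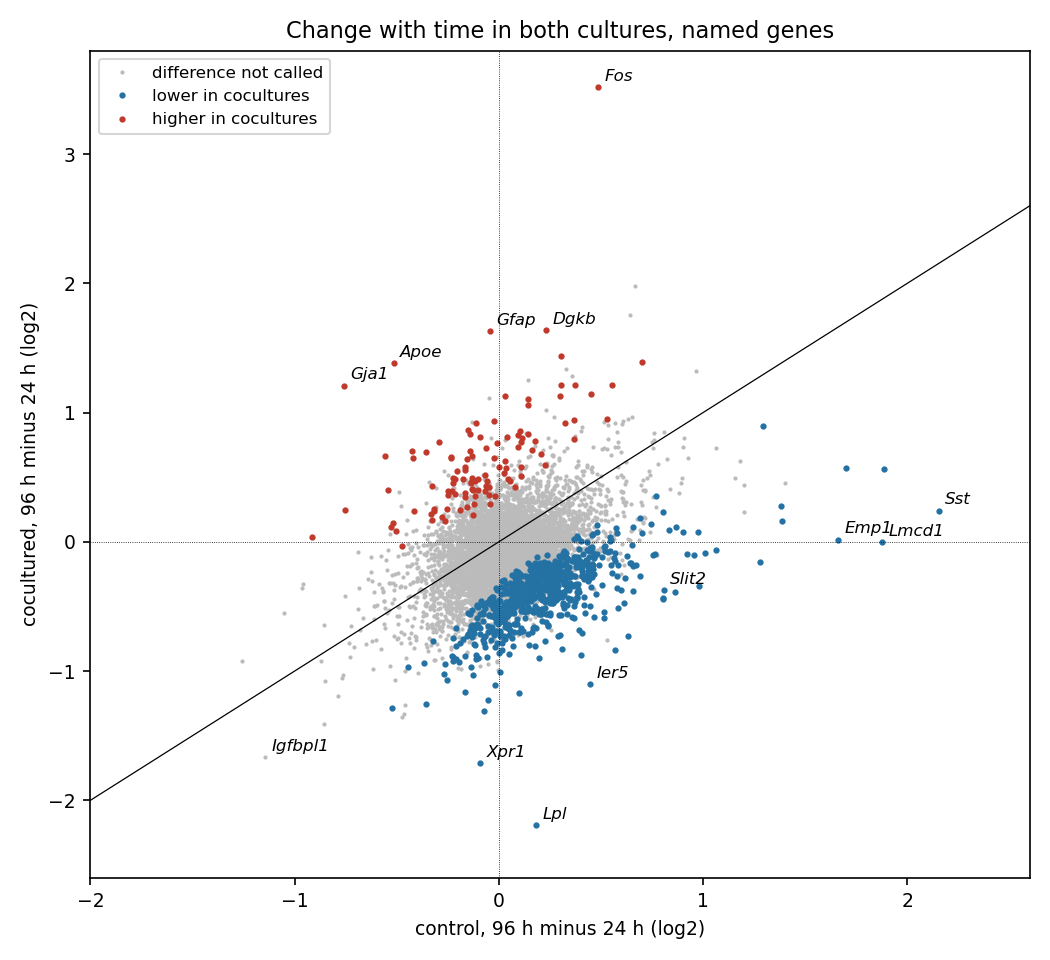
Log2 change between 24 h and 96 h in control cultures (horizontal) and in cocultures (vertical) for 8099 named genes, with the line of equal change. Red points mark the 108 genes whose change was called higher in cocultures and blue points the 759 called lower. Fos, Gfap, Apoe and Gja1 lie above the cloud, Lpl and Xpr1 below it, and Sst, Lmcd1 and Emp1 to its right.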

How the data were processed

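Expression was measured on Affymetrix rat arrays, 1 for each of 20 samples. The deposited table holds a ratio per probe set and array. Per the file headers these start from RMA values of the 20 arrays and are scaled to the median of the gene, which was checked: the median was 1 within 0.001 for 31069 of 31099 probe sets. RMA and MAS5 are named in the submitters' processing notes, with no version. The chip definition, which groups probes into probe sets, is among the details not given in the sources used here. A deposited annotation covered 17243 probe sets, those called present on 10 of 20 arrays per the file headers.

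Ratios were converted to log2. The fit used limma 3.58.1 (R 4.3.3) on all 20 arrays with 4 group means and the replicate number as block, and Benjamini-Hochberg adjustment at 0.05. Leaving out 57 control probe sets, 31042 were tested. Symbols were updated through RefSeq (GRCr8), giving 11328 probe sets for 8099 genes. The 2278 genes with several probe sets were averaged, 216 probe sets matched several genes and 5647 none. Same-numbered arrays were taken as pairs by the rule of the experiment. Their deviations from the group means had correlations of 0.242 to 0.856 over 30 pairs (0.45 to 0.81 for the 5 cocultured ones). Over 120 other pairs the correlations ran from -0.797 to 0.681, with a median of -0.204, so the ranges overlapped. Taking deviations from a group mean in itself lowers the correlations between unlike numbers. The labels call the replicates biological without saying whether each came from its own dissection, so p-values measure the spread between these samples.

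The experiment, the members, the 36 gene lists (25 of functions, 11 of cell types, 939 genes) and the tests were chosen with earlier results of these data known. Named genes were the 15 largest rises and falls past the threshold with 1 sign in all 5 pairs, the called genes of each list by p (at most 4), and the 6 largest called differences from controls each way. Other list members were named after their values were seen. Alternatives covered the block, the arrays in the fit, scaling, hybridisation signal, a pseudocount of 0.1, prior, array weights, a 1.5-fold threshold, probe set summary and each replicate left out. On simulated data for this comparison over 8099 genes, 12% of 50 genes changed by 0.25 (log2) were called, 72% at 0.5, 98% at 1 and 100% at 1.5. Few genes were changed there, and 146 were called in all, against 2116 in the real fit. The adjusted threshold was therefore stricter in the simulation, and these shares are not those of the real fit. Promoter windows are the 250 bases before the RefSeq start. Of the 141 named genes 139 are reported here, and some other list members are not.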

Additional observations from a re-analysis of the deposited data

Results flagged for a closer look

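In 284 groups of 5 arrays, 27 held an array far from the other 4, where chance alone gives about 1 in 20 groups, and these tests share arrays and are not independent. Most of the far values belong to replicate 5, which also stood apart in the spread of its genes (SD 0.68 at 24 h). At 24 h replicate 5 was far above the others in Cldn11 (1.12) and Gfap (1.38). It was far below them at 24 h in Pgm2 (-2.4), Vsnl1 (-2.89), Lpl (0.15), Xpr1 (-2.02), Gabra5 (-2.63), Ephb1 (-0.77), Cacna1d (-0.25), Atp2b2 (-1.36), Mmp16 (-1.49), Ddah1 (-1.66) and Bcl11b (-0.19). At 96 h it was far below them in Pgm2 (-1.69), Gda (-1.49), Rab3b (-0.24), Gabra5 (-1.14), Cck (-0.01), Nrn1 (-1.92), Atp2b2 (-0.79), Tm7sf2 (-0.92) and Mmp16 (-2.51). Replicate 1 at 96 h was far below the others in Apoe (1.36), Lpl (-1.61), Egln1 (-0.38) and Gpx1 (-1.34).

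For 69 of the 139 named genes reported here the change with time differed between cocultures and controls by limma's interaction contrast with Benjamini-Hochberg adjustment over all genes. Over all 8099 genes 1.33% were called higher in cocultures and 9.37% lower. Named genes were picked for large or called changes, some of them for this difference itself, so a high share among them was built in. Without the replicate block 4 genes of the whole table keep such a call and with the hybridisation covariate 11 do, so the values below rest on the pairing. Each value is the log2 change in cocultures minus that in controls.

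The change with time was higher in cocultures for the activity genes Fos (3.03) and Rgs4 (0.69) and the glial genes Gja1 (1.97), Apoe (1.89) and Gfap (1.68). The same held for the sterol genes Tm7sf2 (1.12), Mvd (0.96), Ebp (0.79) and Mvk (0.69), the neurotrophin Ntf3 (1.22) and Fgf13 (0.72). So it was for Dgkb (1.4), Etl4 (1.13), Inf2 (0.91), Cryab (0.91), Hpca (0.84), Cadps2 (0.84), Synpr (0.75), Gda (0.66), Kcnh3 (0.54), Inpp4b (0.52) and Bhlhe40 (0.5). A higher change was not always a higher level. At 96 h the mean log2 ratios of Fos, Rgs4, Mvd and Mvk were -1.17, -0.37, -0.34 and -0.26 in cocultures, against 0.45, 1.04, 0.42 and 0.42 in controls. Those of Gfap, Gja1 and Apoe were 2.01, 1.55 and 2.01, against -0.31, -0.96 and -1.96.

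Genes whose change with time was lower in cocultures were Lpl (-2.37), Sst (-1.91), Lmcd1 (-1.88), Emp1 (-1.64), Xpr1 (-1.62), Ier5 (-1.55), B2m (-1.41), Cd96 (-1.27), Spin2a (-1.24), Znf383 (-1.17), Ret (-1.09), Pde7a (-1.0), Kyat3 (-0.9) and Sall2 (-0.76). Among neuronal genes these were Slit2 (-1.18), Nrn1 (-1.1), Nefm (-1.02), Syt4 (-0.82), Homer1 (-0.75), Ntm (-0.69), Nsg2 (-0.58), Chgb (-0.42) and Cacna1d (-0.41). Metabolic and protein-handling genes were Sdhb (-0.77), Atp5pb (-0.74), Atp5f1d (-0.7), Slc16a1 (-0.69), Gpx1 (-0.52), Rps9 (-0.52), Rpl6 (-0.52), Cct5 (-0.6), Cct7 (-0.53), Cct4 (-0.51), Psmd8 (-0.6), Psmb6 (-0.42), Atp6ap1 (-0.98) and Atp6v1g1 (-0.51). The rest were Vldlr (-1.14), Prim1 (-0.85), Dkk3 (-0.73), Mmp16 (-0.71), Ackr3 (-0.7), Bid (-0.66), Pou3f3 (-0.65), Cst3 (-0.53), Cdk4 (-0.52) and Vcan (-0.45).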

How the results depend on the processing

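The counts of calls depended most on how the pairing and the hybridisation signal entered the fit, and the cause was not tested. Of 4418 probe sets and 2116 genes called between 24 h and 96 h of coculture, the fit with no replicate block called 310 and 186, and the covariate with the block 172 and 121. Array weights called 7735 and 3837, and keeping only calls with at least a 1.5-fold change left 1218 and 430. Leaving out a replicate gave 1331 to 7812 probe sets and 887 to 3425 genes, the lowest without replicate 4 and the highest without replicate 5. Chosen after seeing the data, the 10 cocultured arrays with no block called 20 and 9, and the covariate with no block 1851 and 1025. Against 867 genes whose time change differed from that of controls, no block called 4, a random block 472, and the covariate 11 with the block and 78 with no block. Keeping only differences of at least 1.5-fold left 408. Array weights called 2809, and leaving out a replicate 112 to 1972. The median of all named genes moved from -0.117 to -0.006 with equal array medians and -0.006 with cyclic loess (-0.149 to -0.101 with a replicate or 1 cocultured array left out), which shifted the share of rises among calls from 21.9% to 47.1% and 50.6%. The hybridisation signal changed by 0.339 to 0.402 with a replicate left out. Of the 141 named genes, 49 kept their call with no block and 31 with the covariate beside the block, against 120 to 140 with a replicate left out and 127 with cyclic loess. Among these Psmd8 changed direction, to 0.09 with the covariate and no block. The counts of list members under other settings were added after seeing the data. In the simulated data changes of 0.25 on the log2 scale were mostly missed, under a stricter threshold than in the real fit. A gene that did not pass is not shown to be steady.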
